A study of Mus musculus with 6 samples.

Results

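Mpo, Elane, Prtn3, Ctsg, Ms4a3, Cebpe and Gfi1, genes of the neutrophil primary granule and of the promyelocyte, were followed in bulk RNA of whole mouse liver. They were chosen by symbol, and all 7 were found among the 20140 genes listed. The RNA came from 6 livers in 3 groups, which the labels name control, intra-C and intra-S and all place on day 21. Read with the paper's account of its models, control mice had a sham operation, intra-C mice had 1000000 CT26 cells put into the cecum and intra-S mice had 50000 CT26 cells put into the spleen. CT26 is a mouse colorectal carcinoma line of BALB/c origin. BALB/c mice, bought at 6 to 10 weeks of age, were the hosts in both models, and no engineered allele is given for any group. Site of implantation, cell number and tumor stage in the liver changed together with the group, so they cannot be told apart here. Each group had 2 livers.

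Primary granules, also called azurophil granules, are filled at the promyelocyte stage of neutrophil development in the bone marrow. Transcription of their enzymes is high in promyelocytes and is largely shut off before the cell matures, whereas the granule proteins persist in the mature neutrophil. Genes of the secondary granules follow at the myelocyte stage under the transcription factor C/EBPε. In bulk tissue, fewer cells of a type and less RNA per cell cannot be told apart.

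The libraries held between 32838321 and 43368309 counts, so that the 3 counts which an observed 0 still allows stood for 0.0679 to 0.0928 CPM (counts per 1000000 of the TMM-scaled library total). This limit and the intervals on single counts cover counting error only. The intra-S livers were the least alike pair, with a correlation of 0.956 of log2(TPM + 1) across genes, compared with 0.986 in the intra-C and 0.992 in the control livers. Counts of calls are therefore also given with single livers left out. Albumin (Alb), the defining hepatocyte transcript, was among the most abundant genes in every liver, from 84340 to 156533 CPM. With 2 livers per group, no permutation of labels can give a two-sided p below 0.33, and the p values below come from edgeR's quasi-likelihood test in 1 fit over all 6 livers with Benjamini-Hochberg adjustment. A gene was called at an adjusted p under 0.05. The labels number the samples of a group without saying that they came from separate mice, so the p values measure the spread between these samples alone.

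The 4 granule enzymes are Mpo, the heme peroxidase myeloperoxidase, and the serine proteases Elane (neutrophil elastase), Prtn3 (proteinase 3) and Ctsg (cathepsin G). In mm10 (RefSeq GRCm38.p6), Mpo lay on chromosome 11 from 87793784 to 87804412, on the plus strand. Prtn3 (chromosome 10, 79879667 to 79883174) and Elane (79886312 to 79888216) lay next to each other on the plus strand, separated by 3137 bases. Ctsg lay on chromosome 14 from 56099885 to 56102574, on the minus strand. RefSeq promoter windows were matched for 6 of the 7 genes, all but Cebpe, and the 250 bases before each start were searched on both strands. GAGGAA, the core of PU.1 and other ETS sites, was found before the start of the 4 granule enzymes and of neither Ms4a3 nor Gfi1, that is in 4 of 6 genes against 23.3% of 32851 windows of the same length. The longer GAGGAAGT, which contains it and was chosen after the windows had been seen, stood in Mpo, Elane and Prtn3 and in 2.44% of all windows. AACNG, the core of MYB sites, was found in 5 of 6 genes and in 74.2% of all windows. TGTGGT, the core of RUNX sites, was found in Ctsg and in 14.0% of all windows, and TTNCNNAA, part of the C/EBP site, in Gfi1 and Ms4a3 and in 36.8% of all windows. These matches are letters in a window and say nothing of binding, and a missing match says only that the letters are not there. The 120 bases that hold the GAGGAA matches of the granule enzymes are printed from RefSeq GRCm38.p6, 5′ to 3′ on the strand of the gene, because they show the neighbouring proteases side by side. Capitals mark GAGGAA and AACNG on either strand. The windows are chr10:79886192-79886311 (plus) for Elane, chr10:79879547-79879666 (plus) for Prtn3, chr11:87793534-87793653 (plus) for Mpo and chr14:56102705-56102824 (minus) for Ctsg.
Elane: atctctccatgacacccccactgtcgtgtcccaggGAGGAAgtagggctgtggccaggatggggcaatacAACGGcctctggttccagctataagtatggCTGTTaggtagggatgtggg
Prtn3: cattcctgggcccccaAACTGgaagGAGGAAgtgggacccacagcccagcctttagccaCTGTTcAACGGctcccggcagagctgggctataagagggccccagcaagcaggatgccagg
Mpo: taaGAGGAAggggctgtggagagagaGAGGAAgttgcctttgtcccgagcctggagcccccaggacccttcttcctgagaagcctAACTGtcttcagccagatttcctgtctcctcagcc
Ctsg: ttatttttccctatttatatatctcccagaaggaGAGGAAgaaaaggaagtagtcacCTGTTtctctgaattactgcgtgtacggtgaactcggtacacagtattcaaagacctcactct
Counted from the start of the gene, with -1 as the last base before it, GAGGAAGT began at -85 in Elane and -95 in Prtn3 and AACGG at -50 and -55, in the same order and on the same strand. In Mpo the GAGGAA matches began at -247 and -224, and in Ctsg the match began at -216.

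Transcripts of the granule enzymes were at or close to 0 in both control livers and had between 138 and 2206 counts in each intra-C and intra-S liver. Of the 7 genes, 6 were called higher in the intra-C livers, against a background of 4.92% of the 16370 genes tested, and 7 of 7 in the intra-S livers, against 6.78%. In both comparisons all 7 had an unadjusted p under 0.05. The share of all tested genes with such a p is not given, so counts at an unadjusted p, here and below, are a description only. For all 7 each tumor-group liver lay above both control livers, which was so for 34.4% of tested genes in intra-C and 30.4% in intra-S. All 7 passed the filter on low counts, but 6 of them had 0 counts in both control livers and passed only through the groups in which they were high. Among the 128 tested genes with 0 counts in both control livers, 20.3% were called higher in intra-C and 41.4% in intra-S, so the counts of called members are given as a description. The calls needed both control livers. With either control liver left out, 0 of the 7 genes were called in either comparison, although all 7 still had an unadjusted p under 0.05, and 0 of all genes tested were called higher in these fits. Without intra-S liver 1, 7 of the 7 genes were called in intra-C and 6 in intra-S, and without intra-S liver 2, 7 in each. Without intra-C liver 1, 5 were called in each comparison, and without intra-C liver 2, 4 in intra-C and 5 in intra-S. The background moved with the liver left out. The share of all genes called higher in intra-C was 0.352% and 0.323% without intra-C liver 1 and 2 and 14.5% and 14.4% without intra-S liver 1 and 2. In intra-S it was 2.13% and 1.97%, and 9.58% and 17.3%, in the same order, so counts from these fits are read against these shares. With a control liver left out, the lowest adjusted p among the 7 was 0.0958 or 0.0985 in intra-C and 0.0710 or 0.0698 in intra-S, and over all alternatives the number called lay between 0 and 7.

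**Figure D1:**
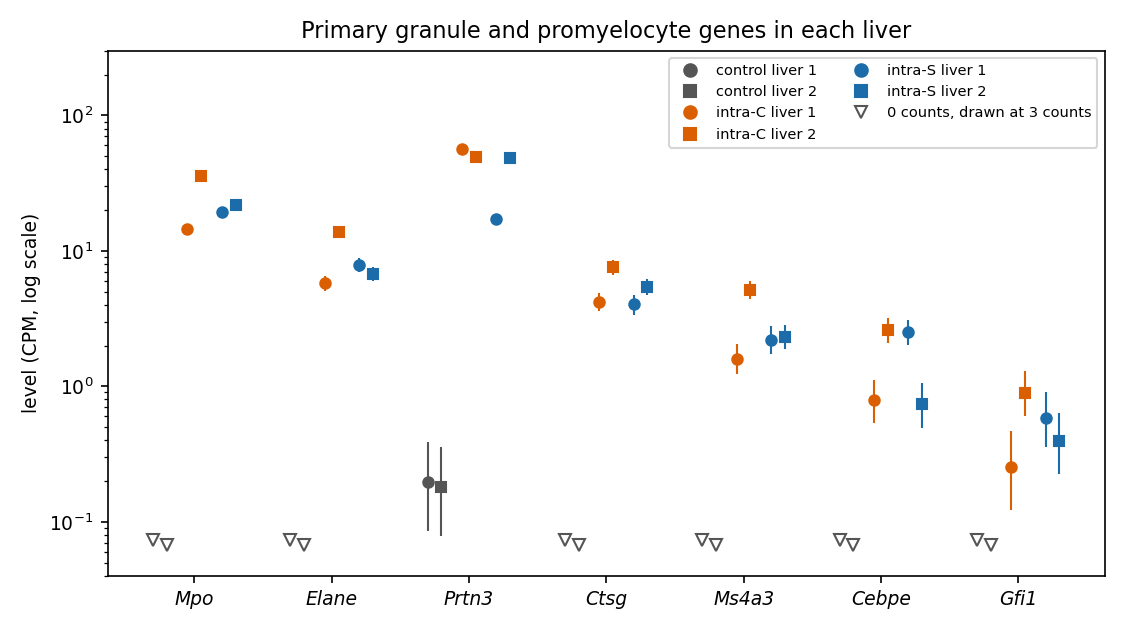
Level of each gene in each liver, in CPM on a log scale, with exact 95% Poisson intervals that cover counting error only. Open triangles mark livers with 0 counts and are drawn at the level of 3 counts. Every intra-C and intra-S point lies above the control points of its gene, and Prtn3 alone was counted in the control livers.

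Mpo had 0 counts in both control livers, 569 and 1163 counts in intra-C livers 1 and 2, and 662 and 884 counts in intra-S livers 1 and 2. On the CPM scale these were 14.5 and 36.0 in intra-C (25.2 ± 15.2, SD, n = 2) and 19.3 and 21.7 in intra-S (20.5 ± 1.68, SD, n = 2). The intra-S values lay between the intra-C values, so the tumor groups overlapped. Against the level of 3 counts in a control liver, 0.0739 CPM, the mean of Mpo was at least 341-fold higher in intra-C (adjusted p = 0.00702) and at least 277-fold higher in intra-S (adjusted p = 0.00579). GENCODE M21 places the antisense gene Gm11505 over Mpo, and the strand setting of the counting is not given in the sources used here, so reads of the pair cannot be told apart where they overlap.

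Elane, whose product cleaves elastin and other matrix and microbial proteins, was counted 0 times in both control livers. It reached 226 and 449 counts in the intra-C livers and 271 and 275 in the intra-S livers, or 5.75, 13.9, 7.90 and 6.74 CPM. The mean was at least 133-fold higher in intra-C (9.82 ± 5.75 CPM, SD, n = 2, adjusted p = 0.00785) and at least 99.1-fold higher in intra-S (7.32 ± 0.818 CPM, SD, n = 2, adjusted p = 0.00711). As for Mpo, intra-C liver 1 was the lowest and intra-C liver 2 the highest of the 4 tumor-group livers.

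Ctsg, a chymotrypsin-like protease, was likewise at 0 in the control livers and had 166 and 246 counts in intra-C and 138 and 220 in intra-S. Its CPM values were 4.23, 7.61, 4.02 and 5.39, so the lowest liver was now intra-S liver 1 and the range was the narrowest of the 7 genes, 1.89-fold. The mean was at least 80.1-fold higher in intra-C (adjusted p = 0.00722) and at least 63.7-fold higher in intra-S (adjusted p = 0.00614).

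Prtn3, an elastase-like protease and the autoantigen of ANCA vasculitis, was the one gene with counts in the control livers, 8 in each (0.197 and 0.181 CPM). It rose to 2206 and 1607 counts in intra-C and to 588 and 1991 in intra-S, or 56.2, 49.7, 17.1 and 48.8 CPM. Intra-S liver 1 was the lowest, 3.28-fold below intra-C liver 1, and both intra-S livers lay below both intra-C livers. The log2 fold change was 8.11 (SE 0.65) in intra-C, a 276-fold difference (95% interval 92.7 to 819, adjusted p = 0.0058), and 7.43 (SE 0.64) in intra-S, a 172-fold difference (95% interval 59.1 to 500.1, adjusted p = 0.00578). Plppr3 overlaps Prtn3 on the opposite strand in GENCODE M21. Its own counts of 64 and 77 in control, 125 and 153 in intra-C and 75 and 95 in intra-S livers were not called (adjusted p = 0.0839 and 0.438).

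Ms4a3, a membrane protein of the MS4A family expressed in granulocyte and monocyte progenitors, lay on chromosome 19 from 11629499 to 11640851. It had 0 counts in the control livers, 63 and 167 in intra-C and 76 and 95 in intra-S, or 1.60, 5.16, 2.22 and 2.33 CPM. The intra-S livers were nearly equal and lay between the intra-C livers. Its mean was at least 45.8-fold higher in intra-C (adjusted p = 0.0176) and at least 30.8-fold higher in intra-S (adjusted p = 0.0156).

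The remaining members are transcription factors, and they had the fewest counts. Cebpe (chromosome 14, 54710363 to 54712174), which encodes C/EBPε and is needed for the secondary granule program, had 0 counts in the control livers, 31 and 84 in intra-C and 86 and 30 in intra-S. The high and the low liver were thus 1 of each group, at 2.60 and 2.51 CPM against 0.789 and 0.736. The mean of Cebpe was at least 22.9-fold higher in intra-C (adjusted p = 0.0390) and at least 21.9-fold higher in intra-S (adjusted p = 0.0326). For the lowest liver of each group the bound was 10.7-fold in intra-C and 9.96-fold in intra-S. Among the calls, only that of Gfi1 in intra-S had a higher adjusted p. Under limma on log2(TPM + 1) the adjusted p of Cebpe was 0.0918 and 0.0897, within 2.17e-05 to 0.213 over all alternatives of both comparisons.

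Gfi1 (chromosome 5, 107716655 to 107725805), a zinc finger repressor required for neutrophil differentiation, had 0 counts in the control livers, 10 and 29 in intra-C and 20 and 16 in intra-S. The exact 95% interval of the smallest value, 10 counts, ran from 4.80 to 18.4 counts and lay above 3 counts. GENCODE M21 places the opposite-strand transcript A430072P03Rik over Gfi1, so that, as for Mpo, reads of the pair cannot be told apart where they overlap. On the CPM scale Gfi1 was at 0.255 and 0.897 in intra-C and at 0.583 and 0.392 in intra-S. It was called in intra-S (mean at least 6.60-fold higher, adjusted p = 0.0474) and missed the threshold in intra-C (mean at least 7.79-fold, adjusted p = 0.0524). For the lowest liver of each group the bound was 5.31-fold in intra-S and 3.45-fold in intra-C. The values of the 2 groups overlapped. Without intra-S liver 1 the adjusted p of Gfi1 was 0.0293 in intra-C and 0.0633 in intra-S, and without intra-S liver 2 it was 0.0282 and 0.0284. Over all alternatives it ran from 0.00218 to 0.280 in intra-C and from 0.00274 to 0.223 in intra-S.

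Compared per length, on the deposited TPM scale, the genes had the same order in each of the 4 tumor-group livers. Prtn3 was first (31.2 to 110.4 TPM), followed by Elane (11.9 to 30.8), Ctsg (7.13 to 15.5), Mpo (5.43 to 14.4), Ms4a3 (3.04 to 10.4), Cebpe (1.13 to 4.28) and Gfi1 (0.157 to 0.589). Over the livers, the ranges of Elane and Ctsg, Ctsg and Mpo, Mpo and Ms4a3, and Ms4a3 and Cebpe overlapped. Those of Prtn3 and Elane, and of Cebpe and Gfi1, did not. The gene lengths behind the TPM values are not given in the sources used here. For Mpo they worked out at 6008 bases against 3424 bases of merged GENCODE M21 exons, and for Prtn3 at 1147 against 1732 bases. Per exon length from GENCODE, an order worked out after the values were seen, Prtn3 and Elane were still first and next in each liver, Mpo stood above Ctsg in each and Cebpe above Ms4a3 in intra-S liver 1. The ranges of Prtn3 (9.90 to 32.4 CPM per exon kilobase) and Elane (5.85 to 14.1) then overlapped, and those of Mpo (4.23 to 10.5) and Ms4a3 (0.851 to 2.74) did not.

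The intra-S and intra-C livers were then compared directly. None of the 7 genes was called, with 0 at an adjusted and 0 at an unadjusted p under 0.05 by edgeR and 0 by DESeq2, and edgeR called 0% of all genes. The log2 difference, intra-S minus intra-C, was -0.30 for Mpo (95% interval -1.40 to 0.80), -0.42 for Elane (-1.58 to 0.73) and -0.33 for Ctsg (-1.36 to 0.70). A level 2-fold lower in intra-S thus lay within each of these intervals. For Prtn3 the difference was -0.68 (-1.76 to 0.39, adjusted p = 0.522), and Prtn3 was the 1 gene of 7 whose groups did not overlap, against 21.5% of all genes with both intra-S livers below both intra-C livers. The difference of Ms4a3 was -0.57 (-2.13 to 0.99). The transcription factors had the widest intervals, -2.21 to 2.09 around -0.06 for Cebpe and -2.47 to 2.01 around -0.23 for Gfi1. The only call among the alternatives was Prtn3 with intra-S liver 2 left out (adjusted p = 0.00233), which leaves intra-S liver 1, the low one, as the whole group. Without intra-S liver 1 the adjusted p of Prtn3 was 0.743, and over all alternatives it ran from 0.00233 to 0.808.

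**Figure D2:**
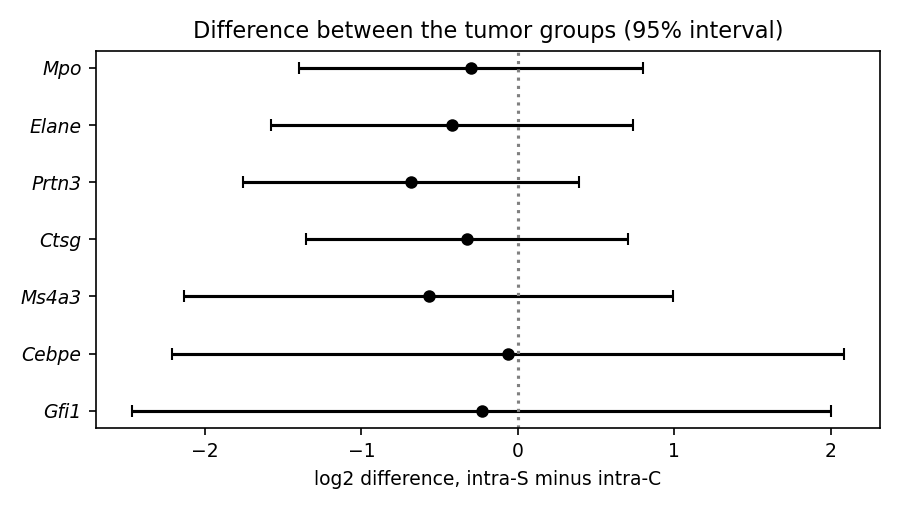
Fitted log2 difference between the intra-S and intra-C livers (intra-S minus intra-C) for each gene, with its 95% interval from edgeR's quasi-likelihood fit. All 7 intervals cross the dotted line at 0, and the intervals of Cebpe and Gfi1, the genes with the fewest counts, are the widest.

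The proportions among the genes were then compared from liver to liver, as a description. Mpo and Elane kept a nearly constant ratio of counts, 2.52 and 2.59 in the intra-C livers and 2.44 and 3.21 in the intra-S livers. Prtn3 to Elane ranged far more widely, 9.76 and 3.58 in intra-C and 2.17 and 7.24 in intra-S, although these genes are neighbours. The ratio was thus high in intra-C liver 1 and intra-S liver 2 and low in the other two, and the groups overlapped. From the lowest to the highest liver, the ratio to Elane spanned 1.32-fold for Mpo, 1.33-fold for Ms4a3, 1.57-fold for Ctsg, 1.67-fold for Gfi1, 2.91-fold for Cebpe and 4.50-fold for Prtn3.

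Of the counts of the 4 enzyme genes, Prtn3 took 69.7% (exact 95% Clopper-Pearson interval 68.0 to 71.3) in intra-C liver 1 and 46.4% (44.7 to 48.1) in intra-C liver 2. It took 35.4% (33.1 to 37.8) in intra-S liver 1 and 59.1% (57.4 to 60.7) in intra-S liver 2. These intervals cover counting error only, and the 2 livers of each group differed by more than the group means did (58.0% in intra-C and 47.3% in intra-S). With Prtn3 set aside, Mpo made up 59.2% and 62.6% of the counts of the other three in intra-C and 61.8% and 64.1% in intra-S. Elane then made up 23.5% and 24.2% in intra-C and 25.3% and 19.9% in intra-S, and Ctsg the rest.

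**Figure D3:**
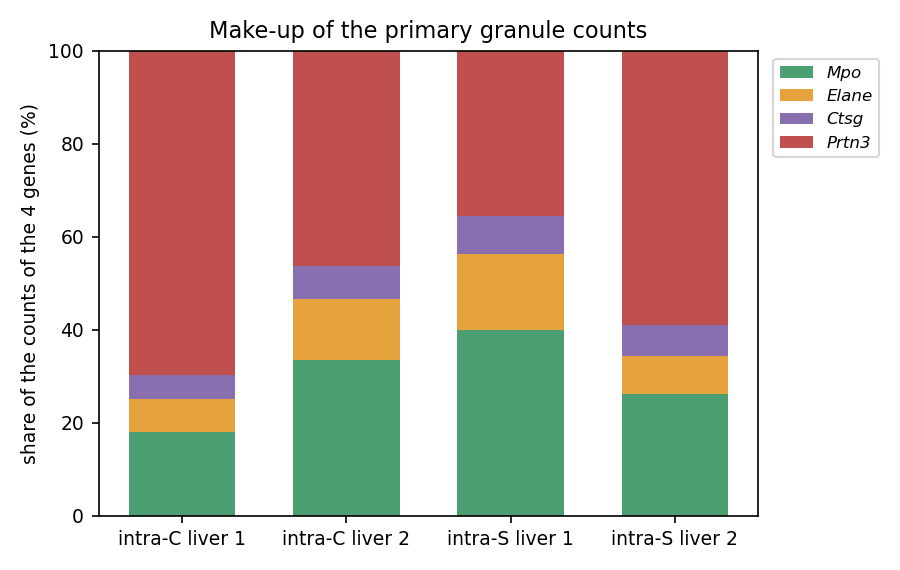
Share of each gene among the counts of Mpo, Elane, Ctsg and Prtn3 in each intra-C and intra-S liver, in percent of counts, 1 bar per liver. The share of Prtn3 is 69.7% in intra-C liver 1 and 35.4% in intra-S liver 1, and Mpo takes 59.2% to 64.1% of the counts of the other three genes in each liver.

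Later neutrophil genes were mostly highest in another liver. Of 14 secondary and tertiary granule genes, 11 were highest in intra-S liver 1 among the 4 tumor-group livers, as were 11 of 16 mature neutrophil genes. The 12 further primary granule and promyelocyte genes were spread, with 5 highest in intra-C liver 2, 4 in intra-S liver 2, 2 in intra-S liver 1 and 1 in intra-C liver 1. Among the same 4 livers, 6 of the 7 genes were highest in intra-C liver 2, and Prtn3 was highest in intra-C liver 1. Camp, the cathelicidin of the secondary granules, was instead highest in intra-S liver 1, at 36.1 CPM against 6.44, 17.1 and 12.6 CPM in intra-C livers 1 and 2 and intra-S liver 2. Retnlg, a gene of mature neutrophils, was at 58.8 CPM in intra-S liver 1 against 3.59, 7.58 and 8.41 CPM. Ltf, Ngp, S100a8 and Ly6g were also highest in intra-S liver 1, with 3.67- to 4.94-fold between the highest and lowest tumor-group liver, compared with 1.89- to 3.53-fold for the 7 genes. Cebpe, which acts at the passage between these stages, also had its highest ratio to Elane in intra-S liver 1 (0.317), whereas its ratio to Ltf was 0.0371 there against 0.0484, 0.0421 and 0.0245 in the other livers. Neither peak was particular to a neutrophil stage. Of 12 monocyte and macrophage markers, 8 were highest in intra-C liver 2. Of 17 granulopoiesis transcription factors, 11 were highest in intra-S liver 1, as were 10 of 10 erythroid markers. The share over all genes is not given.

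The ratio of the summed TPM of Mpo, Elane, Prtn3 and Ctsg to that of the secondary granule genes Ltf, Camp and Ngp was 1.34 and 0.536 in the intra-C livers and 0.136 and 0.896 in the intra-S livers. Intra-S liver 1 thus stood lowest and the groups overlapped. Without Prtn3, a choice made after its values were seen, the ratio was 0.252, 0.197, 0.0657 and 0.227 in the same order, and intra-S liver 1 remained the lowest. The summed CPM of all 7 genes was 0.197 and 0.181 in the control livers, 83.3 and 115.8 in the intra-C livers and 53.7 and 86.1 in the intra-S livers. Without Prtn3, summed after its values were seen, it was 27.1 and 66.1 in the intra-C and 36.5 and 37.3 in the intra-S livers, so that intra-C liver 1 and not intra-S liver 1 was the lowest and the groups overlapped.

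**Figure D4:**
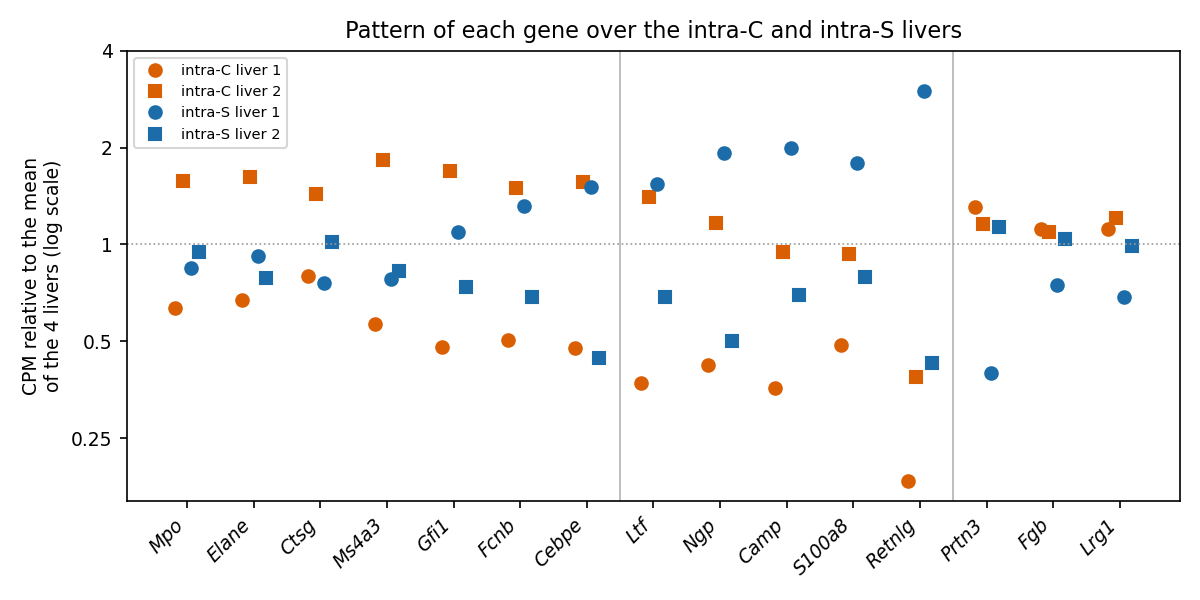
CPM of single genes in the 4 intra-C and intra-S livers, each divided by the mean of the 4 livers, on a log scale. The left block holds members with Fcnb, the middle block late neutrophil genes and the right block Prtn3 with Fgb and Lrg1, a grouping made after the values were seen. Intra-S liver 1 is the highest in the middle block and the lowest in the right block, and intra-C liver 2 is the highest in the left block.

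Genes that accompany the members in the same granules or cells were taken from a list, of which 12 genes were tested. In intra-C, 6 were called higher and 0 lower (2.38% of all genes were lower), and in intra-S 7 and 0 (3.95% lower), with a median log2 fold change of 2.23 and 2.08 (genes at 0 in the control livers entered at their lower bound) against 0.01 and 0.04 over all tested genes. Without intra-C liver 1 or 2, 0 were called in intra-C and 4 in intra-S in either fit. With intra-S liver 1 or 2 left out, 10 were called in intra-C in either fit, and 9 and 7 in intra-S. Fcnb, ficolin-B, had 0 counts in the control livers and reached 1.53 and 4.55 CPM in intra-C and 3.99 and 2.08 CPM in intra-S, at least 41.1-fold higher in both (adjusted p = 0.0200 and 0.0156). Srgn, the granule proteoglycan serglycin, rose from 2.88 and 4.01 CPM to 20.3 and 23.2 CPM in intra-C and to 38.9 and 23.7 CPM in intra-S. Lyz2, lysozyme, was already at 25.1 and 33.2 CPM in the control livers and rose to 109 and 172 CPM in intra-C and to 139 and 191 CPM in intra-S. Prss57, a further protease of the primary granule, was at 0 in the control livers and at 0.102 to 0.804 CPM in the others and was not called (adjusted p = 0.0895 and 0.0982). Ctsc, which activates the granule proteases, was not called either (adjusted p = 0.126 and 0.535). With intra-S liver 1 left out it was called in both comparisons (adjusted p = 0.00143 and 0.0105), and with intra-S liver 2 left out in intra-C (0.00169). Over the left-out livers its adjusted p ran from 0.00143 to 0.452 in intra-C and from 0.0105 to 0.811 in intra-S.

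Of 14 tested transcription factors of granulopoiesis other than the members, 4 were called higher and 1 lower in intra-C, and 6 and 0 in intra-S. Without intra-C liver 1 or 2, 0 were called in intra-C and 3 of 15 higher in intra-S in either fit. When intra-S liver 1 or 2 was left out, 5 of 14 and 6 of 15 were higher in intra-C, with 1 lower in each, and 6 of 14 and 10 of 15 in intra-S. Spi1, which encodes PU.1, rose from 2.61 and 2.67 CPM to 9.32 and 12.2 CPM in intra-C and to 14.9 and 12.8 CPM in intra-S (adjusted p = 0.0127 and 0.00698). Runx1 rose from 0.468 and 0.317 CPM to 3.08 and 1.79 CPM and to 3.76 and 4.19 CPM. Myb, a factor of progenitors, had 0 counts in the control livers and was at 1.35 and 1.39 CPM in intra-C and at 1.57 and 0.883 CPM in intra-S (adjusted p = 0.0174 and 0.0146). Cebpa, which hepatocytes also express, fell from 168 and 271 CPM to 57.7 and 77.7 CPM in intra-C (adjusted p = 0.0423) and was at 172 and 106 CPM in intra-S (adjusted p = 0.258). Cebpd was called in intra-S (adjusted p = 0.0421) and not in intra-C (adjusted p = 0.131), and the difference between the groups was not called.

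Among 15 tested cytokines, chemokines and receptors of granulopoiesis, 6 were called higher and 1 lower in each comparison. Without intra-C liver 1 or 2, 2 of 16 were higher in intra-C and 4 of 16 in intra-S in either fit, and 0 were lower. In fits lacking intra-S liver 1 or 2, 10 of 15 and 11 of 16 were higher in intra-C, with 1 lower in each, and 8 of 15 and 10 of 16 in intra-S, with 1 and 2 lower. Csf3r, the receptor of G-CSF, rose from 1.33 and 1.40 CPM to 10.4 and 15.6 CPM in intra-C and to 14.3 and 10.1 CPM in intra-S. Cxcr2, which draws neutrophils out of the marrow, rose from 0.345 and 0.339 CPM to 5.47 and 4.61 CPM and to 6.97 and 4.98 CPM. Cxcl12, the chemokine that holds them there, fell from 321 and 354 CPM to 123 and 149.8 CPM in intra-C and to 88.9 and 141 CPM in intra-S (adjusted p = 0.0436 and 0.0241). Among later stages, 9 and 12 of 14 secondary and tertiary granule genes were called higher in intra-C and intra-S, as were 11 and 13 of 16 genes of mature neutrophils, and 0 were lower. Without intra-C liver 1 or 2, 5 and 3 of the secondary and tertiary granule genes and 3 and 3 of the mature neutrophil genes were higher in intra-C, and 9 and 9, and 10 and 9, in intra-S, where 1 mature neutrophil gene was lower in each fit. With intra-S liver 1 or 2 left out, the numbers were 12 and 13, and 15 and 14, in intra-C, with 1 mature neutrophil gene lower in the first of these fits, and 12 and 13, and 14 and 15, in intra-S. In the fits without an intra-C liver, the adjusted p of Fcnb was 0.0612 and 0.0781 in intra-C and 0.0325 and 0.0358 in intra-S, and that of Spi1 was 0.0667 and 0.0859 in intra-C and 0.0255 and 0.0267 in intra-S. Myb was then called in neither (0.102 and 0.0959 in intra-C, 0.0507 and 0.0514 in intra-S), and neither was Cebpd. Over the left-out livers, in intra-C and in intra-S, the adjusted p ran from 0.00375 to 0.142 and from 0.00272 to 0.104 for Fcnb, from 0.00119 to 0.155 and from 0.000594 to 0.101 for Spi1, and from 0.00356 to 0.135 and from 0.00264 to 0.103 for Myb.

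Markers of other cells moved in part with these genes. Of 12 monocyte and macrophage markers, 9 were called higher in each comparison. The monocyte markers Ly6c2 (edgeR adjusted p = 0.103 and 0.0888) and Ccr2 (0.0824 and 0.0571) were called in neither. Csf1r, F13a1, Marco, Adgre1 and Cd5l were called in both. The summed level of the 12 markers was 1121 to 1161 CPM in control, 4785 to 5324 CPM in intra-C and 4068 to 4134 CPM in intra-S livers. Most of this sum was Fn1, fibronectin, which hepatocytes also make. The other 11 markers, summed after their values were seen, came to 186 and 251 CPM in control, 890 and 1105 CPM in intra-C and 560.1 and 982 CPM in intra-S livers. Of 4 tested mast cell and basophil markers, 1 (Hdc) was called higher in each. The median log2 fold change of the 4 was 2.06 in intra-C and 2.24 in intra-S, against 0.01 and 0.04 over all tested genes. Genes with at most 3 counts in the control livers entered at their lower bound. Cpa3, a defining mast cell protease, was at 0 to 0.204 CPM and was not among the tested genes. Of 3 tested eosinophil markers, 1 (Ear2, which has near-identical copies and is uncertain) was called higher in each, while Prg2, a defining granule protein, was at 0 to 0.196 CPM. Of 11 tested stem and progenitor markers, 2 were called higher and 1 lower in each, and proliferation genes were called higher in 2 of 15 in intra-C and in 7 of 15 in intra-S. Without intra-C liver 1 or 2, 1 of 12 monocyte and macrophage markers was higher in intra-C and 6 in intra-S in either fit, 0 stem and progenitor markers were called in either comparison, and 0 proliferation genes were called in intra-C and 3 in intra-S. Mast cell and basophil markers were then called in neither comparison, and 1 eosinophil marker was called in intra-S. When intra-S liver 1 or 2 was left out, 11 and 11 monocyte and macrophage markers were higher in intra-C and 10 and 10 in intra-S, and 4 and 4 proliferation genes in intra-C and 7 and 8 in intra-S. In the same fits, stem and progenitor markers were called in both directions in both comparisons. Mast cell and basophil markers and eosinophil markers were called higher in both comparisons. The part of monocytes and dividing cells in the levels of the 7 genes was not tested.

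Most of the nearest listed genes in the genome were not called. Gm19810, 450 bases beyond Elane, had 65 and 101 counts in control, 98 and 129 in intra-C and 41 and 126 in intra-S livers and was not called. Mcpt8 and Gzmd, which flank Ctsg, were not called, although Gzmd had 0 counts in the control livers and 6 to 28 counts in the others. Slc7a8, 10040 bases from Cebpe, was called higher in both comparisons (log2 fold change 1.90 and 1.96, adjusted p = 0.0341 and 0.0254). Gm42147, 11823 bases from Gfi1, was called in intra-C (adjusted p = 0.0414) and not in intra-S (adjusted p = 0.0944).

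Over the 6 livers, log2 CPM values of all pairs of members correlated with r between 0.917 (Prtn3 and Cebpe) and 0.999 (Mpo and Ctsg). The points share the wide gap between control and tumor-group livers, and 930 of 12679 genes had r over 0.9 with the mean of the members. The 10 non-members with the most similar pattern were Smad2 (r = 0.9997), Stk10, Csf3r (r = 0.997), Syk, F13a1, Vav1, Gm52502, Ncf1, Cttnbp2nl and Fcnb. For Prtn3 alone, an addition made after its values were seen, the most similar were Fgb, Mefv, Fgl2, Lrg1, Ano6, Nfkb2, Cyb561, Fgg, Ambp and Slc37a1. Fgb, the fibrinogen beta chain made by hepatocytes, was at 20891 and 20402 CPM in the intra-C livers and at 13955 and 19339 CPM in the intra-S livers, so that intra-S liver 1 was the lowest, as for Prtn3. Lrg1, a secreted leucine-rich glycoprotein, was at 1012 and 1090 CPM in intra-C and at 622 and 892 CPM in intra-S. Fgb and Lrg1 were picked for their likeness to Prtn3 over these same livers, so the shared pattern is no separate observation. For the members other than Prtn3 and Ctsg, intra-S liver 1 was not the lowest.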

How the data were processed

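Bulk RNA of 6 livers was sequenced from poly(A)-selected libraries. Per the labels and the study's methods, the authors aligned reads to mm10 with HISAT2 2.1.0, assigned uniquely aligned reads to exons with featureCounts (Subread 2.0.6) and deposited raw counts per gene. The authors also deposited TPM values made from these counts. Annotation, strand setting and TPM gene lengths are not given in the sources used here. Per liver, depth was 32838321 to 43368309 counts.

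Counts were tested with edgeR 4.0.16 in R 4.3.3 (TMM, filterByExpr with a minimum count of 10, quasi-likelihood test, 1 fit over all 6 livers, Benjamini-Hochberg adjustment over 16370 genes). Folds against a control group at 0 counts are lower bounds against 3 counts in the control liver with the smaller scaled total. Unless a single liver is named they are of the group mean, so single livers can lie below them. Everything else was computed in Python 3.11.15. The procedure was also run on simulated data. The outcome of that run is not given here, so nothing is concluded from it about the calls on genes at or close to 0 counts in the control livers. Alternatives were DESeq2 1.42.0, limma 3.58.1 on log2(TPM + 1) and log2(TPM + 0.1), a robust estimate of the spread, other filters and scalings, only 2 groups in the fit, the replicate number as a block, and each liver left out.

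The 7 genes and the 16 further lists were chosen with earlier results of these data known. All 7 are named with their values in every liver. From each list, up to 4 called genes with the largest change at a mean of at least 1 CPM were to be named, for cell type markers the first 3 genes, and in addition the 10 genes most like the members and the nearest listed neighbours. Not every gene this rule covers is printed. Prss57, Ctsc and Cebpa, the late neutrophil genes set beside the members, Cxcl12, Myb and the genes most like Prtn3 were chosen after their values were seen. GENCODE M21 and RefSeq GRCm38.p6 tables gave positions, promoter windows and exon lengths. All 20140 listed symbols matched RefSeq.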

Additional observations from a re-analysis of the deposited data

How the results depend on the processing

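In the comparisons with control, the fitted difference of each of the 7 genes kept its direction under every alternative that could test it. With at least 10 counts required in every liver, 0 members were called, since none could be tested. With either control liver left out, 0 were called in either comparison, and over all left-out livers the number called ran from 0 to 7 in intra-C and from 0 to 7 in intra-S. A group left with 1 liver was assumed to vary like the others. The replicate block gave 5 called members in intra-C (Cebpe 0.0595) and 6 in intra-S (Gfi1 0.0714, within 0.00274 to 0.223 over the alternatives). The same numbers did not deviate together across the tested genes (correlations -0.032, 0.083 and 0.043). With 2 livers per group this cannot exclude that the numbers pair the livers. The block moved the genes called lower in intra-C from 389 to 259. DESeq2 called all 7 in both comparisons, limma on log2(TPM + 1) called 5 in each, and with only the 2 groups compared 6 of 6 tested in intra-C and 5 of 7 in intra-S were called.

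Counts over all genes moved more. In intra-C, higher and lower calls were 1662 and 1049 with DESeq2, 2548 and 2223 with only the 2 groups compared, and 497 and 896 with limma on log2(TPM + 1). Lower calls were also 801 without TMM and 890 with limma on log2(TPM + 0.1). With a liver left out they ran from 0 to 2546 higher and from 0 to 2112 lower. In intra-S they were 2003 and 1397 with DESeq2, 276 and 116 with only the 2 groups compared, and 685 and 1553 with limma on log2(TPM + 1). Lower calls were also 1115 without TMM and 1476 with limma on log2(TPM + 0.1). With a liver left out they ran from 0 to 3010 higher and from 0 to 2683 lower. Directly compared, DESeq2 called 234 genes higher and 272 lower in intra-S, and left-out livers gave 0 to 1312 higher and 0 to 1572 lower. The members called there ran from 0 to 1, Prtn3 without intra-S liver 2. Fewer livers or genes enter some of these fits, and otherwise the cause was not tested.

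Left-out livers changed the sign of the direct log2 difference of 6 genes. It ran from -0.81 to 0.49 for Mpo, -0.92 to 0.34 for Elane, -0.69 to 0.14 for Ctsg, -1.18 to 0.49 for Ms4a3, -1.19 to 1.02 for Cebpe and -0.88 to 0.92 for Gfi1, with the highest value in each case without intra-C liver 2. Without intra-S liver 2 it was also positive for Cebpe (0.57) and Gfi1 (0.03). None of these was called.

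The mean summed level was 160.3 and 100.5 on the TPM scale in intra-C and intra-S against 99.5 and 69.9 CPM, and 74.3 CPM without Mpo in intra-C. Without Prtn3, an addition made after the data were seen, it was 46.6 CPM in intra-C and 36.9 CPM in intra-S. The mean ratio of primary to secondary granule genes fell from 0.939 to 0.224 in intra-C without Prtn3. As mean shares of counts, Mpo took 25.8% in intra-C and 33.1% in intra-S, against 6.37% and 8.73% of TPM and 13.2% and 17.1% per GENCODE exon length. Elane took 10.05% and 12.2% of counts, 18.1% of TPM in intra-S and 17.9% and 22.0% per exon length. Ctsg took 6.17% and 7.42% of counts, 7.69% and 9.94% of TPM and 10.5% and 12.7% per exon length. Depth limits genes with few counts, among them Gfi1.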

Other observations

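Of 13 tested inhibitors of the granule proteases, 7 were called higher in the intra-C and 10 in the intra-S livers, and 0 were lower. Serpina1b (edgeR adjusted p = 0.443 and 0.0827) and Serpinb6b (0.274 and 0.187) were called in neither comparison. Without intra-C liver 1 or 2, 3 were called in intra-C and 6 in intra-S in either fit. Without intra-S liver 1 or 2, 11 and 10 were called in intra-C and 12 and 12 in intra-S, Serpina1b among the latter (edgeR adjusted p = 0.0143 and 0.0334, within 0.0143 to 0.4 over the left-out livers). A2m, the broad inhibitor alpha-2-macroglobulin, was at 0.0739 and 0 CPM in the control livers, at 117 and 103 CPM in intra-C and at 108 and 229 CPM in intra-S (edgeR adjusted p = 0.00543 and 0.00443). Slpi, an inhibitor of elastase and cathepsin G, rose from 1.50 and 1.22 CPM to 10.3 and 4.52 CPM and to 13.7 and 16.2 CPM (edgeR adjusted p = 0.0291 and 0.0111). Serpinb1a, which inhibits the same proteases inside neutrophils, rose from 1.18 and 0.905 CPM to 4.28 and 10.6 CPM in intra-C and to 14.1 and 6.74 CPM in intra-S, and among the tumor-group livers it was lowest in intra-C liver 1, as Mpo and Elane were. Serpina1d rose from 11.5 and 18.6 CPM to 1065 and 503 CPM and to 1175 and 2117 CPM, but the Serpina1 genes are near-identical copies, so the split of reads among them is uncertain.

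Of 10 erythroid markers, 0 were called higher in intra-C and 6 in intra-S. Alas2, the first enzyme of heme synthesis in red cells, was at 5.54 and 8.01 CPM in control, 6.72 and 5.97 CPM in intra-C and 25.8 and 19.3 CPM in intra-S livers (edgeR adjusted p = 0.858 and 0.0181). Tal1, a transcription factor of erythroid progenitors, was at 0.714 and 0.769 CPM in control, 1.20 and 1.73 CPM in intra-C and 5.10 and 2.45 CPM in intra-S livers (edgeR adjusted p = 0.259 and 0.0360). Without intra-C liver 1 or 2, 1 and 0 erythroid markers were called higher in intra-S, and Alas2 was not (edgeR adjusted p = 0.0543 and 0.0549, within 0.00196 to 0.164 over the left-out livers). Without intra-S liver 1, 4 erythroid markers were called higher in intra-S and Tal1 was not (edgeR adjusted p = 0.0556, within 0.00363 to 0.228 over the left-out livers), and without intra-S liver 2, 8 were. In the direct comparison 8 of the 10 had an unadjusted p under 0.05 (the share of all genes is not given) and 0 were called. Of 8 megakaryocyte and platelet markers, 3 were called higher in intra-C and 5 in intra-S (1 and 0, and 3 and 3, without intra-C liver 1 or 2, and 5 and 5, and 4 and 6, without intra-S liver 1 or 2), all 8 had an unadjusted p under 0.05 in both, and Pf4, platelet factor 4, rose in both. T cell and innate lymphocyte markers were called higher in 0 and 1 of 10, B cell markers in 0 and 0 of 5, and hepatocyte markers in 0 and 2 of 10, with 1 lower in intra-S. The T cell and hepatocyte markers called higher in intra-S did not stay called with either intra-C liver left out. With intra-S liver 1 or 2 left out, hepatocyte markers were called in both directions in both comparisons. Without intra-S liver 2, so were T cell and innate lymphocyte markers in intra-S. B cell markers were called in none of these fits. With either control liver left out, 0 genes of any list were called in either comparison.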
